A study of Populus ussuriensis with 12 samples.

Results

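Roots of the poplar Populus ussuriensis that overexpress PuC3H35 were compared on medium with and without polyethylene glycol (PEG6000). The comparison rests on the 6 overexpressor libraries of the 12 in the series, chosen by their genotype label: 3 from control medium (numbered 1, 2 and 5 in the labels) and 3 from medium with 6% PEG6000 (numbered 1, 3 and 4). Per the labels, plants grown in vitro were 7 days old at transfer and spent 7 more days on either medium before the roots were taken. The other 6 libraries came from wild-type roots handled the same way, 3 on each medium. They show where the overexpressor response differs, and they also enter the filter on low values and the estimate of spread behind each test. No label states the promoter that drives PuC3H35, how many transgenic lines were used or whether the libraries of a group came from separate plants. The p-values therefore reflect only how far libraries of a group differ, in part perhaps for technical reasons, and the overexpressed gene and the transgenic material that carries it cannot be told apart. The growth protocol also names methyl jasmonate without tying it to a group.

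PEG6000 is a polymer too large to pass freely through plant cell walls, so it draws water out of reach of the root and lowers the water potential of the medium, which mimics drought. Roots short of water are known to accumulate abscisic acid and osmoprotectants, to adjust water channels and to alter their cell walls and barriers. PuC3H35 belongs to the CCCH zinc finger proteins, named for the cysteine and histidine residues that hold their zinc ions, many of which bind RNA and some of which regulate transcription under stress in plants.

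Expression was given as FPKM, a read count divided by gene length and by the total of the library, for 35907 gene identifiers per library. The deposited files paired 0 of these identifiers with a gene name or product, so the genes below are known only by identifier and no pathway, cell type marker or level of PuC3H35 itself was examined, and the root label was not checked against markers. Whole reads recovered from the FPKM steps came to 10734829, 12004808 and 11666555 in overexpressor control libraries 1, 2 and 5, and to 11635607, 11570461 and 11268501 in overexpressor PEG libraries 1, 3 and 4. Between 30943 and 31610 genes had a read in the overexpressor controls and between 30955 and 31187 in the PEG libraries (exact permutation test, two-sided p = 0.9, where the smallest p possible with 3 against 3 is 0.1). The 10 most abundant genes took 6.33% to 7.07% of summed FPKM in the controls and 6.00% to 7.16% on PEG (exact permutation test, two-sided p = 0.7). No pair of overexpressor libraries within a group was so alike as to be 1 library deposited again. The chi-square per gene, which sets the difference against counting error alone, was 4.83 between PEG libraries 1 and 3, 12.6 and 15.2 between PEG library 4 and these, and 8.49 to 14.0 among the controls. PEG library 4 thus lay further from the other PEG libraries than those lay from each other.

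Overexpressor roots on PEG had 385 genes at higher and 134 at lower levels than on control medium, out of 24976 tested with at least 1 FPKM in 3 or more of the 12 libraries. Both directions together made up 2.08% of the genes tested, the higher ones 1.54% and the lower ones 0.537%. The test was limma on log2(FPKM + 1) over all 12 libraries, and a gene was called when its Benjamini-Hochberg adjusted p was under 0.05. In each of the 519 called genes all 3 PEG libraries lay on one side of all 3 controls. Among all genes tested, 6.45% had every PEG library above every control and 10.7% had every PEG library below. The higher genes changed more: their median log2 change was 1.26, with 247 at least 2-fold and 79 at least 4-fold up, while the lower genes had a median of -0.81, with 52 at least 2-fold and 3 at least 4-fold down. Over all genes tested the median was -0.05. The number of calls varied with the library left out: without overexpressor PEG library 1, 186 genes were higher and 52 lower. Without overexpressor control 1, 262 were higher and 67 lower. Leaving out any other overexpressor library, 402 to 459 genes were called in all. Each of these fits had 1 library fewer. With the 6 overexpressor libraries fitted alone, 208 were higher and 57 lower. Called under each of 18 other settings and left-out libraries were 141 of the 385 higher genes and 33 of the 134 lower ones.

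**Figure D1:**
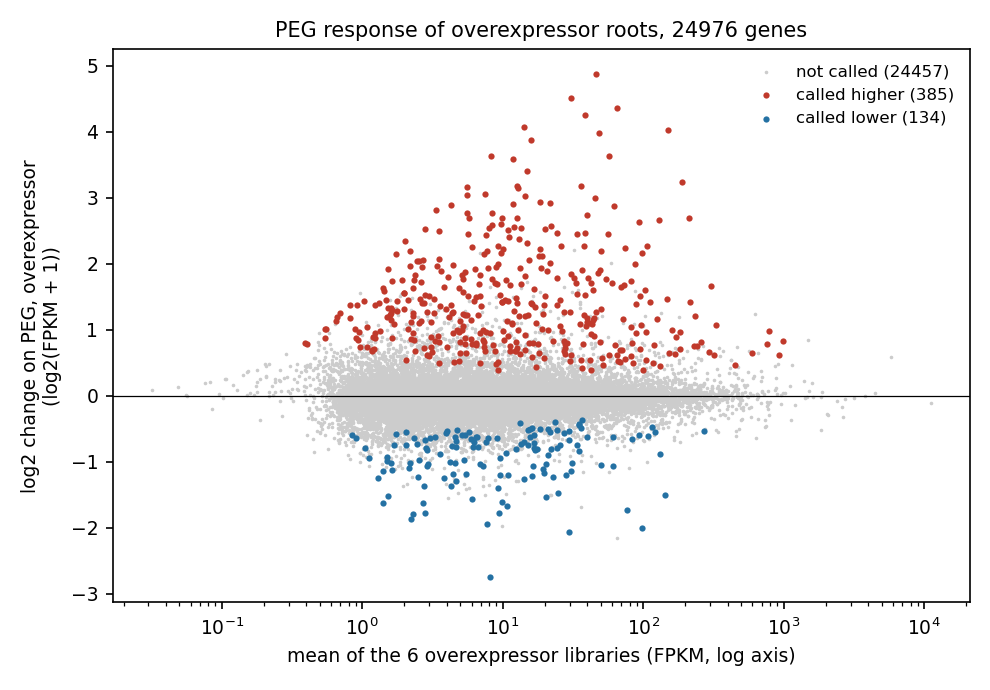
Each point is 1 of 24976 genes, with its mean FPKM over the 6 overexpressor libraries on a log axis and its log2 change on PEG in the overexpressor on the vertical axis. Red points are the 385 genes called higher, blue points the 134 called lower, and the higher genes reach further from 0 than the lower ones.

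The higher genes were spread over all levels of expression. They made up 1.49% (16 of 1074) of the genes with a mean under 1 FPKM in the overexpressor, 1.27% of the genes with 1 to 10 FPKM, 1.72% of those with 10 to 100 and 3.47% (35 of 1008) of those over 100. The share of lower genes was 0.186%, 0.526%, 0.584% and 0.595% in the same classes. Genes with a mean under 1 FPKM entered the test only through 3 or more of the 12 libraries at 1 FPKM or more. Where those were PEG libraries, the filter itself favours genes raised on PEG, so the shares in the lowest class are a description. In the amount of transcript, the higher genes together took 1.56% to 1.72% of summed FPKM in the overexpressor controls and 3.34% to 3.79% in the overexpressor PEG libraries, with no overlap. In wild type the same genes went from between 1.37% and 1.75% to between 5.76% and 7.06%. The lower genes went from between 0.577% and 0.614% to between 0.313% and 0.318% in the overexpressor, and from between 0.649% and 0.725% to between 0.299% and 0.319% in wild type. The lower genes thus reached about the same share on PEG in both genotypes, whereas the higher genes reached a smaller share in the overexpressor. These genes were chosen on the overexpressor contrast, so the overexpressor shares are a description with no test.

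The gene with the largest rise was Potri.012G006800.v3.1. Its values were 4.93, 0.795 and 1.78 FPKM in overexpressor controls 1, 2 and 5, and 98.6, 88.1 and 81.9 FPKM in overexpressor PEG libraries 1, 3 and 4. The PEG libraries were close together and far above every control, and control 1 was the highest of the controls. The log2 change was 4.87 (SE 0.46, limma adjusted p = 2.17e-04), and it was called under all 18 alternatives. In wild type the gene had 0.953, 6.88 and 3.96 FPKM on control medium and 466, 387 and 503 FPKM on PEG. The wild-type log2 change was 6.73, and the difference between the responses did not pass the test (log2 -1.86, SE 0.65, limma adjusted p = 0.11).

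The second largest rise was that of Potri.007G120400.v3.1. It stood at 0.962, 1.24 and 1.77 FPKM in the overexpressor controls and at 41.1, 31.2 and 107 FPKM in PEG libraries 1, 3 and 4, so the groups were far apart and PEG library 4 was the highest. The log2 change was 4.52 (SE 0.36, limma adjusted p = 7.13e-05). In wild type it had 2.14, 1.43 and 2.1 FPKM on control medium and 1308, 731 and 1097 FPKM on PEG, each PEG value well above that of every overexpressor library. The rise was smaller in the overexpressor (log2 interaction -3.95, SE 0.51, limma adjusted p = 0.00105), a difference of similar size but not called with limma-voom on the recovered reads (log2 -3.77, adjusted p = 0.094).

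The largest fall was that of Potri.007G086400.v3.1, which had 10.5, 11.4 and 23.0 FPKM in overexpressor controls 1, 2 and 5 and 1.41, 1.06 and 1.27 FPKM in PEG libraries 1, 3 and 4. The PEG values rest on few reads, 8, 6 and 7 against 55, 67 and 131 in the controls, but lay close together and below every control. The log2 change was -2.75 (SE 0.36, limma adjusted p = 0.00209). In wild type it went from 33.4, 10.2 and 15.6 to 1.75, 3.32 and 2.1 FPKM, a log2 change of -2.48.

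Next came Potri.001G235500.v3.1, at 53.2, 43.9 and 46.5 FPKM in the overexpressor controls and 13.8, 13.5 and 6.4 FPKM on PEG. PEG library 4 was the lowest, and no PEG library came near a control. The log2 change was -2.06 (SE 0.34, limma adjusted p = 0.00771), beside -2.07 in wild type, where the gene went from 60.7, 20.9 and 38.6 to 6.42, 9.99 and 7.89 FPKM. The difference between the responses was 0.01 with an SE of 0.48 on the log2 scale (limma adjusted p = 0.996), so its interval is wide.

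**Figure D2:**
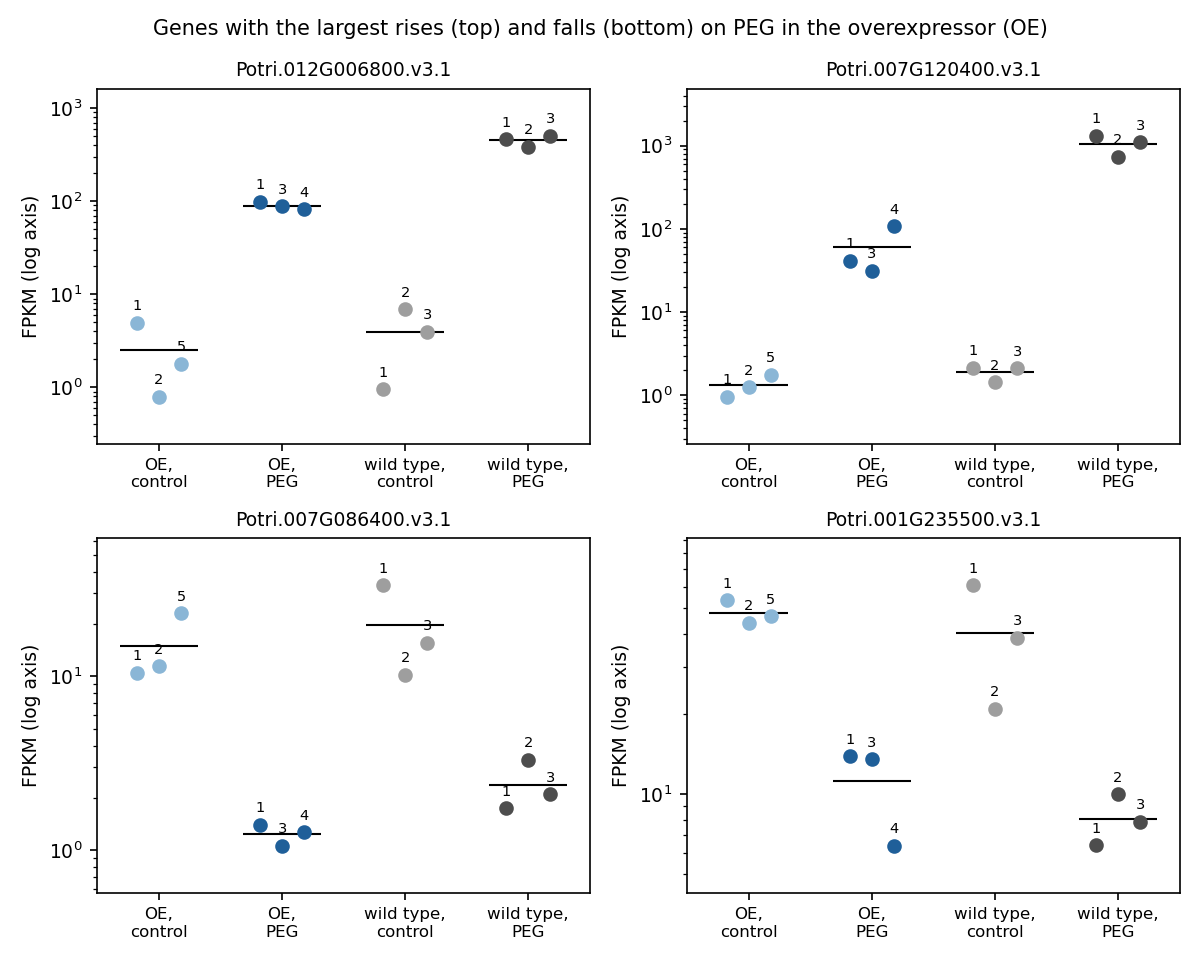
FPKM on a log axis in each of the 12 libraries for the genes with the 2 largest rises (top) and the 2 largest falls (bottom) in the overexpressor (OE), with a bar at each group's mean and each library's number above its point. The overexpressor PEG libraries lie apart from the overexpressor controls in all 4 genes, and in the top panels the wild-type PEG libraries lie higher still.

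No gene went from at least 5 FPKM in every overexpressor control to under 1 FPKM in every overexpressor PEG library, and 5 genes did the reverse. They were named after their values were seen. The choice itself asks for low controls and high PEG values, and the 3 overexpressor PEG libraries sufficed to carry such genes past the filter. The changes and p-values of these 5 genes are therefore a description. Potri.001G106950.v3.1 rose from 0.393, 0.703 and 0 FPKM to 16.3, 10.4 and 21.5 FPKM (log2 change 3.62, limma adjusted p = 3.68e-04). Potri.013G041700.v3.1 rose from 0.485, 0.954 and 0.357 to 9.31, 6.21 and 16.0 FPKM (2.77, 2.17e-04). Both had their highest overexpressor value in PEG library 4. Both also rose in wild type, by log2 changes of 4.34 and 4.01, and neither interaction was called (limma adjusted p = 0.478 and 0.0657). The overexpressor control values of Potri.001G106950.v3.1 rest on 2, 4 and 0 reads.

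Potri.001G391300.v3.1 rose from 0.928, 0.995 and 0.285 to 8.5, 6.54 and 17.4 FPKM, again highest in PEG library 4 (log2 change 2.69, limma adjusted p = 9.31e-04). Its wild-type PEG libraries held 119, 70.1 and 81.2 FPKM, and its rise was smaller in the overexpressor by an interaction of -3.30 (SE 0.45, limma adjusted p = 0.0014). Potri.003G111200.v3.1 rose from 0.9749, 0.939 and 0.897 to 6.16, 5.01 and 7.72 FPKM (log2 change 1.90, limma adjusted p = 0.00124). In wild type its log2 change was 2.38, and the interaction was not called (limma adjusted p = 0.437). The fifth, Potri.002G049500.v3.1, is described with the differences from wild type.

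Most genes called in the overexpressor moved the same way in wild type. The wild-type and overexpressor changes are computed from different libraries, but the calls share each gene's estimate of spread over all 12 libraries, so being called in one genotype is not independent of being called in the other. Of the 385 genes higher in the overexpressor, 343 (89.1%) were also called higher in wild type, where 12% of all genes tested were called higher, and 2 were called lower. Of the 134 lower genes, 105 (78.4%) were also called lower in wild type, against 16.6% of all genes tested, and 3 were called higher. The reverse shares were small: the 343 genes are 11.5% of the 2994 genes higher in wild type, and the 105 genes are 2.53% of the 4153 genes lower there. The 448 genes called the same way in both genotypes numbered 215 without overexpressor PEG library 1 and 296 without overexpressor control 1. In all, 28.6% of genes tested were called on PEG in wild type and 2.08% in the overexpressor. The median SD of log2 values over genes was 0.156 in overexpressor controls and 0.166 in overexpressor PEG libraries, and 0.164 and 0.129 in the wild-type groups. The spread was thus larger in the overexpressor than in wild type on PEG, though not on control medium. Whether spread bears on the numbers called was not tested. The test of the difference itself, the interaction of genotype and PEG, called 1873 genes (7.5%), with the higher log2 change in the overexpressor in 3.5% of genes tested and the lower in 4%, a count that fell to 967 without wild-type PEG library 1, to 1136 without wild-type PEG library 3 and to 1240 without wild-type control 3.

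Where both genotypes rose, the overexpressor rose less in many genes. Among the 343 genes higher in both, 131 had a called interaction, in 129 of them with the smaller rise in the overexpressor. These 129 are 37.6% of the 343, beside 32.4% of all 2994 genes higher in wild type. The median FPKM of the 343 genes went from 4.22 to 16.3 in the overexpressor and from 3.8 to 32.6 in wild type. Their median log2 changes were 1.37 and 2.22. Among the 105 genes lower in both, 17 had a called interaction, all with the smaller fall in the overexpressor, and the median log2 changes were -0.79 and -1.08. These 17 are 16.2% of the 105, below the 20.4% of all 4153 genes lower in wild type. The median FPKM of the 105 genes went from 15.5 to 7.17 in the overexpressor and from 18.1 to 6.03 in wild type. Both sets were chosen by calls on the same libraries, so these counts and medians are a description.

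**Figure D3:**
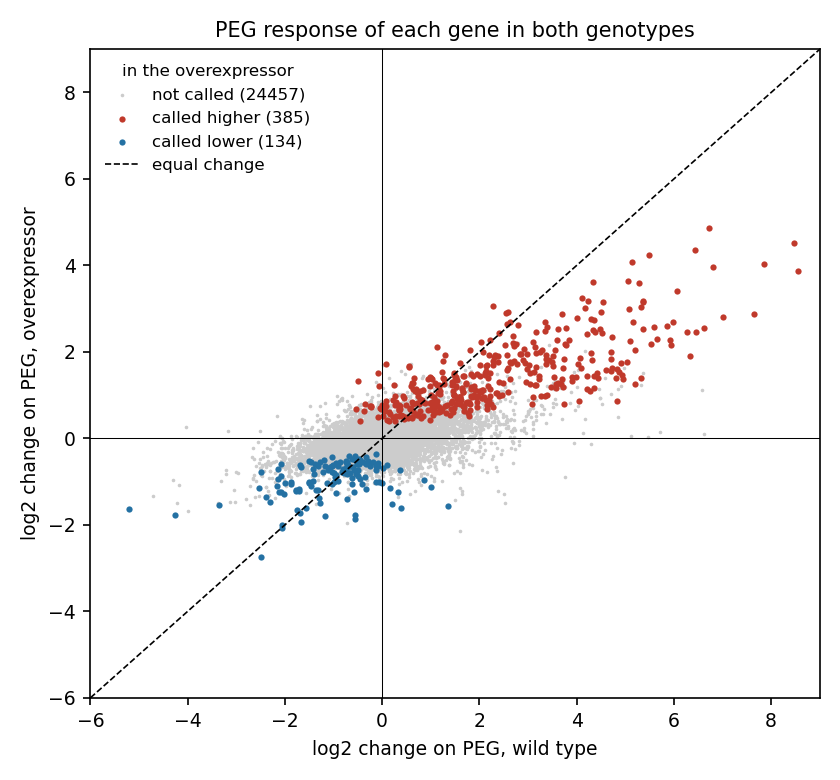
Each of 24976 genes is a point at its log2 change on PEG in wild type (horizontal) and in the overexpressor (vertical), with the 385 genes called higher in the overexpressor in red and the 134 called lower in blue. The dashed line marks equal change, and most red points at large wild-type changes lie below it.

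The heatmap of called genes shows the same by library. These genes were called on the same libraries, which favours genes with little spread within a group, so the medians by library are a description. Among the higher genes the median log2 value against the mean of the overexpressor controls was 1.27, 1.13 and 1.28 in PEG libraries 1, 3 and 4, and among the lower genes the medians were -0.85, -0.75 and -0.82. The median FPKM of the higher genes was 16.7, 14.9 and 16.6 in these libraries, against 4.56, 4.10 and 4.74 in overexpressor controls 1, 2 and 5.

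**Figure D4:**
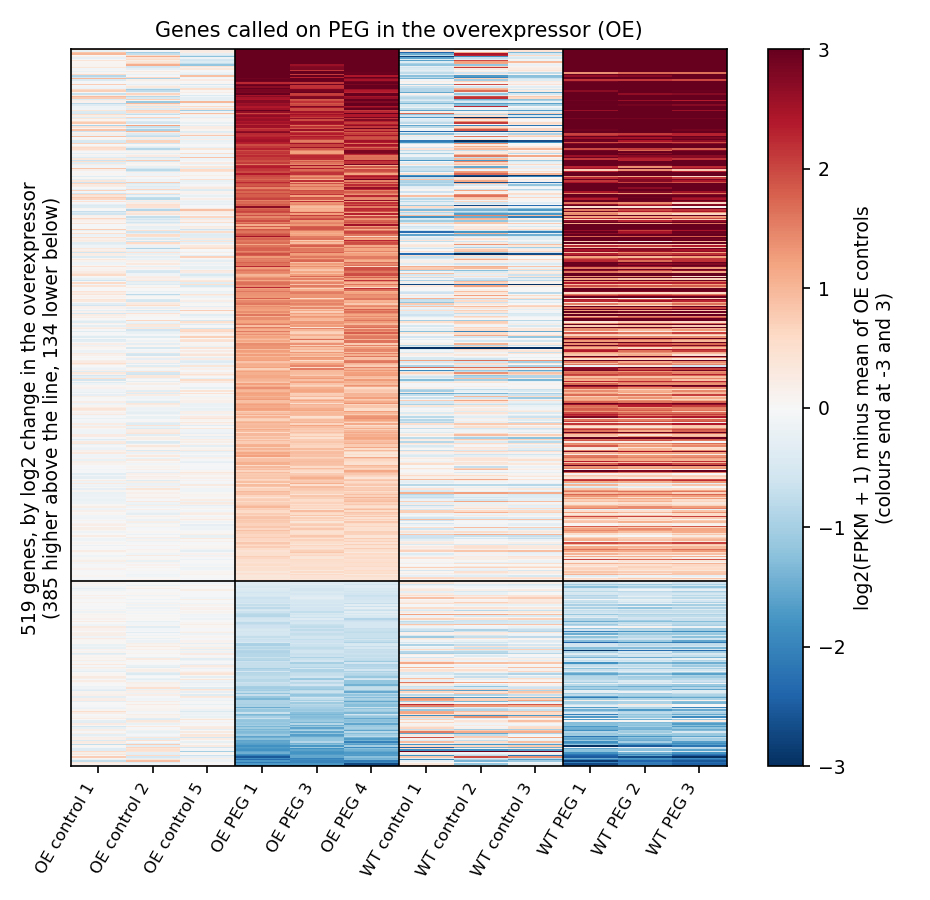
Rows are the 519 genes called on PEG in the overexpressor, ordered by their log2 change there, and columns are the 12 libraries. Colours give log2(FPKM + 1) minus the mean of the overexpressor (OE) controls and end at -3 and 3, and the wild-type (WT) PEG columns are darker than the overexpressor PEG columns over much of the 385 higher genes.

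To view the overexpressor response without choosing genes on its size, genes were grouped by their call and the size of their change in wild type. Of the 427 genes that PEG raised 4-fold or more in wild type, 198 (46.4%) were called higher in the overexpressor and 0 lower, and 395 had a positive change. Their median FPKM went from 4.04 to 10.8 in the overexpressor and from 1.71 to 27.2 in wild type, and the median log2 changes were 1.07 and 2.81. Of the 871 genes 2- to 4-fold higher in wild type, 100 (11.5%) were called higher in the overexpressor, with a median log2 change of 0.34 beside 1.35 in wild type. Of the 1696 called higher by less than 2-fold in wild type, 45 (2.65%) were called higher in the overexpressor, with medians of 0.10 and 0.60. The share called thus fell with the size of the wild-type change, down to 0.224% (40 of 17829) among genes not called in wild type. Calls in both genotypes use the same estimate of spread for each gene, so a gene of wide spread tends to miss both. The fall in the share called is therefore a description.

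The genes that fell in wild type were treated the same way. Of the 123 genes at least 4-fold lower in wild type, 18 (14.6%) were called lower in the overexpressor and 0 higher. The median FPKM went from 9.97 to 6.04 in the overexpressor and from 22.7 to 3.08 in wild type, and the median log2 changes were -0.67 and -2.33. Among the 834 genes 2- to 4-fold lower in wild type, 41 (4.92%) were called lower, and among the 3196 called lower by less than 2-fold, 46 (1.44%). Among genes not called in wild type the share called lower was 0.146% (26 of 17829), and over all genes tested it was 0.537%. Because these classes were chosen on the wild-type calls, the wild-type changes and the shares called in them are a description. So are the interaction counts, 294 of 427 with the smaller rise and 77 of 123 with the smaller fall in the overexpressor.

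A gene that missed the threshold in the overexpressor is not thereby shown to be flat. The median half-width of the 95% interval of the log2 change was 0.32 over all genes tested. These intervals are not adjusted for the number of genes. As a background, 3233 of the 24976 genes tested had an unadjusted limma p under 0.05 for the overexpressor change, which corresponds to an interval without 0. Among the 427 genes at least 4-fold higher in wild type, the interval of the overexpressor change excluded 0 in 293 and excluded a rise of 2-fold or more in 94 (22.0%). Among the 123 genes at least 4-fold lower in wild type, it excluded 0 in 70 and a fall of 2-fold or more in 32 (26.0%). Over the 957 genes at least 2-fold lower in wild type, a fall of 2-fold or more was excluded in 691 (72.2%). Over the 1298 at least 2-fold higher, a rise of that size was excluded in 691 (53.2%). The share of all genes tested that excluded a 2-fold change was not counted, so these shares are a description without a background. The log2(FPKM + 1) scale understates the change of low genes, which can add to such exclusions. The median overexpressor change of the 427 genes was 1.07 on this scale and 1.54 with limma-voom.

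The overexpressor libraries did not all show these classes alike. For the 427 genes at least 4-fold higher in wild type, the median log2 value against the mean of the overexpressor controls was 1.18 in PEG library 1, 0.84 in PEG library 3 and 1.19 in PEG library 4, against 2.51, 2.27 and 2.45 in the wild-type PEG libraries. PEG library 3 was the lowest of the 3 in 244 of the 427 genes. For the 123 genes at least 4-fold lower in wild type, the medians were -0.93, -0.83 and -0.29 in overexpressor PEG libraries 1, 3 and 4. PEG library 4 was thus nearest the controls, and it held the highest of the 3 PEG values in 100 of the 123 genes. Its median FPKM over these genes was 7.25, against 4.30 and 4.45 in PEG libraries 1 and 3. Without PEG library 4 the median log2 change of these genes in the overexpressor was -0.88. The -2.33 of wild type comes from the libraries that chose the class, so the gap to it is a description.

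The genotypes also began from different levels in these classes. On control medium, the 427 genes had medians of -0.66, -0.37 and -0.46 in wild-type controls 1, 2 and 3 relative to the overexpressor controls, whose own medians lay between -0.06 and 0.05. The 123 genes had medians of 0.80, 1.38 and 1.01 in the wild-type controls, with the overexpressor controls between -0.06 and 0.06. The wild-type controls took part in the choice of both classes, which favours genes low there in the first and high there in the second, so no test is given. In roots taken whole, fewer cells of a type and less RNA per cell cannot be told apart.

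**Figure D5:**
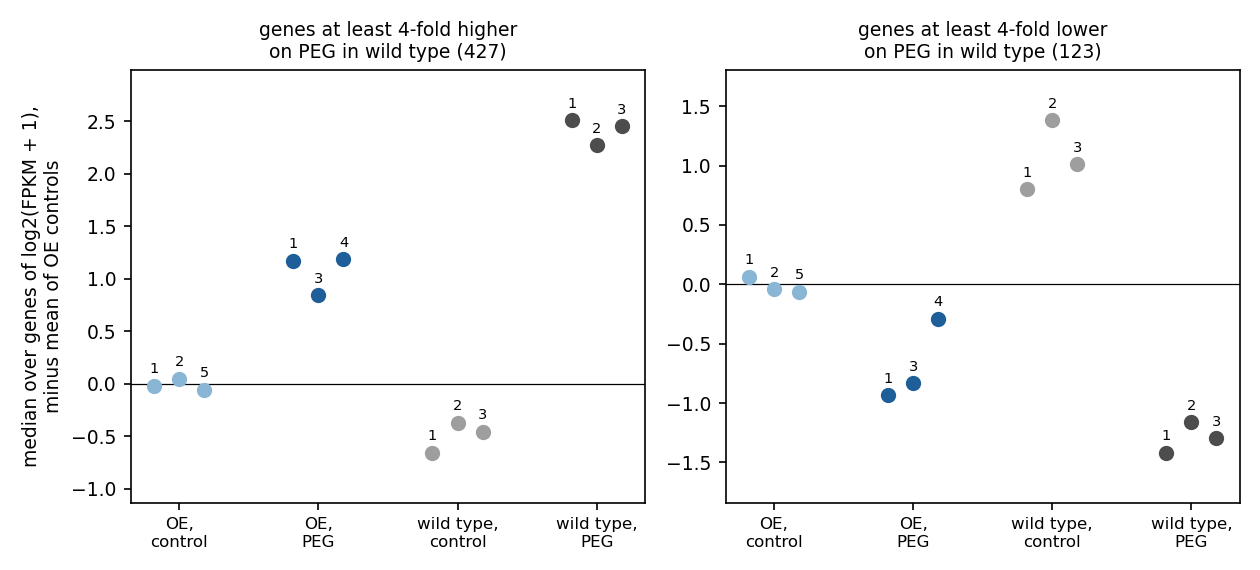
Median over genes of log2(FPKM + 1) minus the mean of the overexpressor (OE) controls in each of the 12 libraries, with its number, for the 427 genes at least 4-fold up (left) and the 123 genes at least 4-fold down (right) in wild type. The overexpressor PEG libraries lie between the overexpressor controls and the wild-type PEG libraries in both panels, and PEG library 4 lies nearest 0 on the right.

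A small group of genes was called in the overexpressor but not the same way in wild type. Of the 42 such higher genes, 29 had the same sign in wild type and 13 had a called interaction. Their median FPKM went from 6.97 to 15.05 in the overexpressor and from 10.83 to 10.98 in wild type, with the median of the overexpressor controls below that of the wild-type controls. Of the 29 such lower genes, 18 had the same sign in wild type and 10 had a called interaction. Their median FPKM went from 5.95 to 2.72 in the overexpressor and from 2.88 to 3.29 in wild type, with the median above wild type on control medium and below it on PEG. Both groups were chosen for a change between the overexpressor libraries without the same call in wild type, which itself favours such starting and end levels, so these medians are a description.

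Among the 448 genes called the same way in both genotypes, 2 had a called interaction with the larger change in the overexpressor, and both are named here after their values were seen. Potri.008G139100.v3.1 had 2.02, 0.934 and 1.15 FPKM in the overexpressor controls and 7.00, 5.68 and 6.17 FPKM in the overexpressor PEG libraries, and in wild type 2.72, 3.13 and 2.85 rose to 4.17, 3.97 and 6.12 FPKM. On PEG the genotypes overlapped, and the overexpressor controls lay below the wild-type controls. The log2 change was 1.64 (SE 0.18, limma adjusted p = 5.94e-04) in the overexpressor and 0.54 in wild type, an interaction of 1.10 (SE 0.25, adjusted p = 0.0231) that was called under 13 of 17 alternatives.

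The other, Potri.002G049500.v3.1, had 0.890, 0.928 and 0.648 FPKM in the overexpressor controls and 13.9, 15.4 and 13.1 FPKM on PEG, and in wild type 0.0673, 0.213 and 0.0660 rose to 3.73, 4.87 and 4.72 FPKM. The overexpressor libraries were above the wild-type libraries on both media. The log2 change was 3.05 (SE 0.13, limma adjusted p = 2.46e-07) in the overexpressor and 2.28 in wild type. The interaction of 0.77 (SE 0.18, adjusted p = 0.0259) turned direction, without a call, with a pseudocount of 0.1 (log2 -0.50) and with limma-voom on recovered reads (log2 -1.17), so which genotype rose more depended on the scale.

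Called in opposite directions were 5 genes, again named after their values were seen, and in all 5 the interaction was called under all 17 alternatives. The choice by opposite calls itself favours a large interaction, and the alternatives reuse the same libraries. The interactions of these genes are therefore a description. Potri.006G068100.v3.1 fell in the overexpressor from 2.51, 2.85 and 2.41 to 0.531, 0.534 and 0.897 FPKM, while in wild type it rose from 0, 0 and 0.0932 to 1.22, 0.859 and 1.10 FPKM. The wild-type controls were at or near 0 while the overexpressor controls were the highest group. The log2 changes were -1.12 (SE 0.14, limma adjusted p = 0.00157) and 1.00, with an interaction of -2.12 (SE 0.20, adjusted p = 2.31e-04). Potri.003G131600.v3.1 fell from 8.52, 14.5 and 5.81 to 2.13, 3.53 and 1.72 FPKM in the overexpressor and rose from 1.00, 2.78 and 2.68 to 8.45, 7.07 and 5.05 FPKM in wild type, with an interaction of -2.92 (SE 0.46, limma adjusted p = 0.00311). The overexpressor fall was called under 12 of 18 alternatives.

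The third gene that fell, Potri.014G050000.v3.1, went from 5.29, 8.61 and 8.36 to 3.00, 3.90 and 2.84 FPKM in the overexpressor and from 2.22, 1.69 and 3.38 to 6.06, 3.93 and 5.46 FPKM in wild type (interaction -1.83, SE 0.31, limma adjusted p = 0.0046). In each of the 3 genes, every overexpressor control was above every wild-type control. The overexpressor fall of this gene was called under 6 of 18 alternatives.

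The pair that rose in the overexpressor and fell in wild type changed less. Potri.003G116000.v3.1 went from 35.4, 37.3 and 37.3 to 47.7, 49.6 and 48.5 FPKM in the overexpressor, with little spread, and from 55.9, 51.1 and 50.0 to 35.5, 41.7 and 37.4 FPKM in wild type. The log2 changes were 0.40 (SE 0.08, limma adjusted p = 0.0264, called under 11 of 18 alternatives) and -0.45, with an interaction of 0.84 (SE 0.11, adjusted p = 0.00144). Potri.001G273500.v3.1 went from 2.03, 1.82 and 2.74 to 4.25, 3.77 and 4.13 FPKM in the overexpressor and from 5.17, 4.54 and 4.83 to 2.89, 3.93 and 2.36 FPKM in wild type, with an interaction of 1.21 (SE 0.22, limma adjusted p = 0.00639). The overexpressor rise was called under 6 of 18 alternatives. In both genes the overexpressor controls lay below the wild-type controls.

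The genes called higher were shorter than most. The gene lengths recovered from the FPKM steps had a median of 1257 bases among the 385 higher genes (quartiles 769 and 1753) and 1394 bases among the 134 lower genes, against 1779 bases (quartiles 1205 and 2502) among all genes tested. The share called higher in the overexpressor fell from 3.52% (149 of 4237) of genes under 1000 bases to 1.61% of genes from 1000 to 2000 bases, 0.805% of genes from 2000 to 3000 bases and 0.399% (15 of 3762) of longer ones. In wild type the share called higher went from 14.8% to 7.47% over the same classes.

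Genes that rose lay beside each other in the identifier order more often than the background share. Successive identifiers were taken as neighbours, since the files hold no coordinates. Of 545 tested neighbours of genes called higher, 12.8% were also called higher, against 1.54% of all genes tested. In all, 62 of 373 higher genes with a placed identifier (16.6%) stood in 27 runs of successive higher genes, and 58 of these 62 were also higher in wild type, beside 343 of all 385 higher genes (89.1%). Pairs of neighbours called lower together numbered 6 of 18109, pairs called higher together 35 and pairs called in opposite directions 2. Reads that fit several near-identical copies may have been counted, as whole reads, at any of them, which could raise such neighbours together. This was not tested. In 1 pair of neighbours in the runs the recovered lengths were equal, but lengths do not show whether copies are near-identical.

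The longest run held 5 genes, from Potri.011G110000.v3.1 to Potri.011G110400.v3.1, and was chosen after its values were seen. Its summed level was 41.9, 33.8 and 53.9 FPKM in overexpressor controls 1, 2 and 5 and 186, 168 and 362 FPKM in overexpressor PEG libraries 1, 3 and 4. In the wild-type controls the sum was 59.0, 92.4 and 65.9 FPKM and in the wild-type PEG libraries 1463, 825 and 1254 FPKM. In the overexpressor the sums could not overlap between media, because every gene of the run was chosen as called higher there. They did not overlap in wild type either, and PEG library 4 was again the highest of the overexpressor. The log2 changes of the 5 genes ran from 1.32 to 2.89 in the overexpressor (highest limma adjusted p = 0.0123) and from 2.86 to 7.64 in wild type, with a called interaction in 2 of the 5. By the first field of the identifier, the share called higher ran from 0.861% in field 003 to 3.03% (19 of 628) in field 019, where the wild-type share was 17.2%.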

How the data were processed

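RNA from roots was extracted with a CTAB method and made into Illumina TruSeq libraries, per the labels' protocols. Each deposited file held 1 value per gene identifier, taken as FPKM from the values, since no source used here names the unit, and FPKM could not be told from RPKM. Bowtie2 2.2.3 and HISAT2 2.1.0 are named, without roles, in the submitters' processing notes. No source used here names the counting tool, annotation, strand handling or genome build. The deposited FPKM were used without further scaling. Dividing by the step of each gene gave whole reads to within 0.01 for 100% of the 370737 nonzero values, and whole gene lengths to within 0.002 base for 100% of 35301 genes. A count test had been planned only for files holding counts.

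The 24976 genes that reached 1 FPKM in at least 3 of the 12 libraries were tested with limma 3.58.1 (empirical Bayes with trend, R 4.3.3) on log2(FPKM + 1), as 4 group means over 12 libraries with 8 residual degrees of freedom. Fold changes on this scale understate the change of low genes. SE are limma's, tests are two-sided, and p-values were adjusted over all genes tested by the Benjamini-Hochberg method. The script was tested on simulated data. No annotation matched, so of the 58 gene lists written 0 were matched, and the genes named are the 2 largest rises and 2 largest falls among non-overlapping genes whose higher group averaged 5 FPKM or more. Other genes and classes were chosen after their values were seen. The comparison and lists were chosen with earlier results of these data known. Alternatives were another pseudocount, no filter, median-ratio and upper-quartile scaling, limma-voom with TMM factors on recovered reads (491 genes called in the overexpressor, 399 of them higher), the overexpressor libraries alone, and each library left out in turn. Each group had 3 libraries, and by the chi-square per gene overexpressor libraries of a group differed by more than counting error on average. Whether spread or depth limits precision was not tested gene by gene, and low genes rest on few reads. Depth ran from 10566953 to 12053926 recovered reads.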

Additional observations from a re-analysis of the deposited data

Results flagged for a closer look

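The difference between the PEG responses of the genotypes, tested as an interaction, was called in 1873 genes, 873 with the higher and 1000 with the lower log2 change in the overexpressor. Among the genes named, it was called with a log2 interaction of -3.95 for Potri.007G120400.v3.1, which rose in both genotypes and less in the overexpressor, and of 0.77 for Potri.002G049500.v3.1 and 1.10 for Potri.008G139100.v3.1, which rose in both and more in the overexpressor on this scale. It was called for the genes that moved in opposite directions, at 1.21 for Potri.001G273500.v3.1 and 0.84 for Potri.003G116000.v3.1, which rose in the overexpressor and fell in wild type, and at -2.92 for Potri.003G131600.v3.1, -2.12 for Potri.006G068100.v3.1 and -1.83 for Potri.014G050000.v3.1, which fell there and rose in wild type. Choosing genes by opposite calls itself favours a large interaction, so the values of those genes are a description. With 3 libraries per group, Dixon's test for a single outlying library was not applied.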

How the results depend on the processing

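With the 6 overexpressor libraries fitted alone, 265 genes were called on PEG, 208 higher and 57 lower, and 244 of them were among the 519. With 1 library left out, the calls ran from 238 to 584, the higher from 186 to 428, the lower from 52 to 156, the interaction from 967 to 2076 and the genes called the same way in both genotypes from 215 to 498. Fewer libraries were fitted in these cases. The other alternatives kept these counts within 1.5 times, and the wild-type count stayed so throughout. Higher genes made up 74.2% of the calls, against 79.8% after median-ratio scaling, 78.4% after upper-quartile scaling and 81.3% by limma-voom. The interaction of Potri.002G049500.v3.1 reversed to -0.50 with a pseudocount of 0.1 and to -1.17 with limma-voom; the cause was not tested. Uncalled interactions near 0 changed sign on leaving out 1 library, from -0.35 to 0.40 for Potri.001G235500.v3.1 and from -0.71 to 0.10 for Potri.007G086400.v3.1. The interaction of Potri.012G006800.v3.1 was called only without wild-type control 2 (log2 -2.31, limma adjusted p = 0.0482). The median overexpressor change of genes at least 4-fold higher in wild type was 1.07, and 1.42 with a pseudocount of 0.1 and 1.54 with limma-voom, both chosen for this value after seeing the data; the lower pseudocount and the read scale shrink low genes less. No paired analysis was possible because the overexpressor groups share only the replicate number 1. In wild type alone, a fit with the replicate number as block called 6836 genes and one without the block 7225. Same-numbered wild-type libraries did not deviate together (correlations of -0.01 to 0.10), so the numbers were not taken as pairs. In the overexpressor, deviations of control 5 correlated at 0.34 with those of PEG library 4 and at -0.29 with those of PEG library 3. Whether libraries of these groups share a source of spread was not tested. No gene list was run because none matched.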
